A study of Mus musculus with 8 samples.

Results

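Subcutaneous fat of mice was sequenced in 8 libraries, and these were split into 4 Fasn-high and 4 Fasn-low libraries. The libraries were grouped by their own read count for Fasn, the gene of fatty acid synthase: 9000 or more raw Fasn reads made a library Fasn-high. WT3, WT4, KO2 and KO4 were Fasn-high, and WT1, WT2, KO1 and KO3 were Fasn-low, so each side held 2 libraries of each label and the split is balanced over genotype. A name such as KO4 gives the label and the replicate number. The libraries labelled WT came from floxed mice (Pkd1(flox/flox)), and those labelled KO from mice with an adipocyte deletion of Pkd1 (Pkd1adipo delta/delta). In these labels Pkd1 means protein kinase D1 (gene symbol Prkd1). All were C57BL/6J back-crossed 4 times, each library came from its own mouse, and the sources used here do not give the Cre driver or the age, sex and feeding of the mice. Prkd1 read counts scaled to library size (CPM, by edgeR's TMM method) were 26.1 to 37.0 in the libraries labelled KO and 26.6 to 33.5 in those labelled WT, so the counts do not check the labels. The split was made after the data had been seen and rests on no treatment. Its p-values therefore say how far other genes separated along it, and Fasn itself is described without a test and left out of every count.

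De novo lipogenesis turns citrate from the mitochondria into fatty acids. ATP citrate lyase (Acly) and acetyl-CoA synthetase (Acss2) supply acetyl-CoA, acetyl-CoA carboxylase (Acaca) makes malonyl-CoA, fatty acid synthase builds palmitate, and elongases and desaturases extend and unsaturate it. In fat and liver these genes are known targets of SREBP transcription factors, which INSIG proteins hold in the endoplasmic reticulum, and of ChREBP (Mlxipl), which responds to glucose. The SREBP family also drives the genes of cholesterol synthesis.

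The 250 bases before the start sites of 4 genes are shown because these genes stand for the pattern described below: Fasn, which made the split, Insig1 and Lss, which were higher in the Fasn-high libraries, and Txnip, which was lower there. The sequences are RefSeq's, build GRCm38, on the strand of the gene. Capitals mark CACGTG (an E-box) and CCAAT or its reverse complement ATTGG (the CCAAT box).
Fasn, chr11:120824548-120824797, minus strand: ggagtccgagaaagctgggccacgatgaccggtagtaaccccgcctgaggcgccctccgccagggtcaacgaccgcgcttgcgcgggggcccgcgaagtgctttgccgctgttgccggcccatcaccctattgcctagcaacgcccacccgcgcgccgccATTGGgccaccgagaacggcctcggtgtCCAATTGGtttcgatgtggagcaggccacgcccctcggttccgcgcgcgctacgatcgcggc
Insig1, chr5:28071162-28071411, plus strand: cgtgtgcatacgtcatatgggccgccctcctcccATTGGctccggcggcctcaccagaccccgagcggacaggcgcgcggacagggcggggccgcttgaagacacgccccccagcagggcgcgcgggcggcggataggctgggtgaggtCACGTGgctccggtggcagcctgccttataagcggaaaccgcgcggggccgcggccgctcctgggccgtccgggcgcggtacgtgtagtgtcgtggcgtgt
Lss, chr10:76531355-76531604, plus strand: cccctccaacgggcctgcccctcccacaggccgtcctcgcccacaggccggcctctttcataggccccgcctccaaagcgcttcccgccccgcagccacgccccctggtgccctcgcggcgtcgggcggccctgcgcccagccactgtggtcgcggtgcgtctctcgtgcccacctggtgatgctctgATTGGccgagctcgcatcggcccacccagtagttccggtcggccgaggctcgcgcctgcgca
Txnip, chr3:96557707-96557956, plus strand: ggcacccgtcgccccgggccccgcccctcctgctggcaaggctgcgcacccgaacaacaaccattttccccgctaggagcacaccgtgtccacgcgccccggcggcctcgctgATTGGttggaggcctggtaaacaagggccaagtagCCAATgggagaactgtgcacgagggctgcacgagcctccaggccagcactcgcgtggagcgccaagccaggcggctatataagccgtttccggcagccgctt
Fasn held the CCAAT box 90 to 86, 62 to 58 and 59 to 55 bases before the start, the last pair overlapping on opposite strands. Insig1 held CACGTG 101 to 96 bases and a CCAAT box 216 to 212 bases before its start, Lss a CCAAT box 62 to 58 bases before, and Txnip CCAAT boxes 137 to 133 and 102 to 98 bases before. Of 9296 tested genes with such a window, 40.2% held a CCAAT box, 9.82% CACGTG and 1.20% TCACNCCAC, a sterol response element, each searched on both strands. TCACNCCAC was in none of the 4 windows shown, which says only that these letters are not there.

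Fasn had 3986 reads in KO1, 5455 in KO3, 6854 in WT2 and 6885 in WT1, then 10973 in WT4, 12810 in KO2, 15002 in WT3 and 18210 in KO4. The libraries just outside and just inside the threshold, WT1 and WT4, differ by a ratio of 1.59, and the lowest and highest by 4.57. The mean was 5056 ± 1110 CPM in Fasn-high and 2162 ± 573 CPM in Fasn-low libraries (SD, n = 4 each). KO1 and KO3 had the fewest Fasn reads and KO4 the most. In all, Fasn-high libraries held 2766875 to 2873457 reads and Fasn-low libraries 2617755 to 2780705, a far narrower range than that of Fasn.

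**Figure D1:**
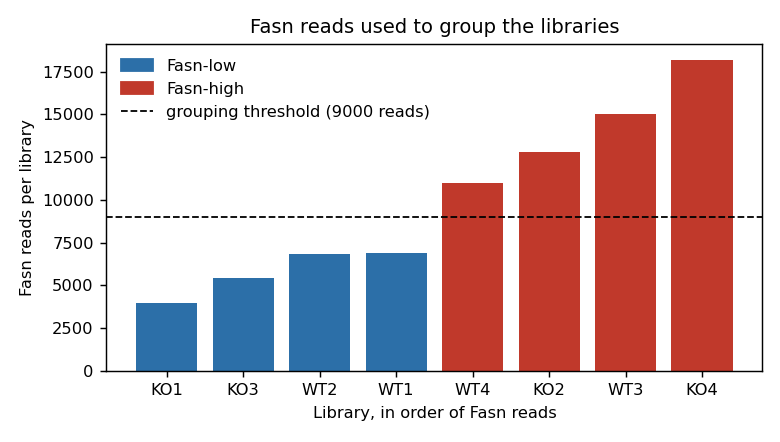
Bars give the raw Fasn reads of each of the 8 libraries in rising order, coloured by side of the split; the dashed line is the threshold of 9000 reads. The step from WT1 (6885 reads) to WT4 (10973 reads) is where the split falls.

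Along this split, genes of fatty acid and cholesterol synthesis had mostly higher values in the Fasn-high libraries and ribosomal protein genes mostly lower ones. Nuclear respiratory chain and fatty acid oxidation genes also had mostly lower values. Their median log2 differences were -0.27 and -0.31 within the KO libraries and -0.02 and 0.01 within the WT libraries. No single gene passed the test over all genes. With the label as a covariate, edgeR's quasi-likelihood test called 0 of 14951 genes higher (0%) and 0 lower (0%) at an adjusted p of 0.05, with 0.352 the smallest adjusted p. Without adjustment, 526 genes were higher (3.52%) and 606 lower (4.05%) at p under 0.05, where 747.55 of the 1132 would be expected with no differences and independent genes. In 246 genes (1.65%) every Fasn-high library was above every Fasn-low one, and in 356 (2.38%) every one was below. DESeq2 called 26 higher and 16 lower. With log2 Fasn CPM as a continuous term in place of the split, the quasi-likelihood test called 46 genes higher with Fasn (0.308%) and 24 lower (0.161%). This term uses the Fasn values of the same libraries that made the split. Its calls, here and below, are therefore a description and no separate evidence. In bulk tissue, fewer cells of a type and less RNA per cell cannot be told apart.

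Of 17 measured fatty acid synthesis genes other than Fasn, 16 had a positive log2 difference, against 49.9% of all genes tested, and their median was 0.29 against -0.00042 over all genes. There were 9 with an unadjusted p under 0.05, all higher, against 3.52% of all genes. In 6 every Fasn-high library was above every Fasn-low one, against 1.65% of all genes. Acly had 375, 267, 285 and 492 CPM in WT3, WT4, KO2 and KO4, and 219, 222, 108 and 179 CPM in WT1, WT2, KO1 and KO3. Every Fasn-high library was above every Fasn-low one, and the lowest values were in the KO libraries on the Fasn-low side. The log2 difference was 0.99 (SE 0.27), with an adjusted p of 0.504 by edgeR's quasi-likelihood test. With the continuous Fasn term, which is no separate evidence, Acly passed (adjusted p = 0.00071, edgeR). Without KO4, the library with the most Fasn reads, the log2 difference of Acly across the split was 0.72.

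Acaca, the carboxylase of the committed step, had 341, 384, 396 and 473 CPM in WT3, WT4, KO2 and KO4 and 202, 280, 330 and 295 CPM in WT1, WT2, KO1 and KO3. The sides did not overlap, though WT3 and KO1 differ by little, and the log2 difference was 0.53 (SE 0.14). Elovl6, which lengthens palmitate, had 103, 60.8, 65.5 and 101 CPM against 55.6, 48.1, 35.2 and 34.5 CPM in the same order of libraries, with a log2 difference of 0.95 (SE 0.21). Scd2, a stearoyl-CoA desaturase, had 2501, 2204, 2209 and 3494 CPM against 1625, 1657, 735 and 1148 CPM, a log2 difference of 1.06 (SE 0.25). All 3 had an adjusted p of 0.477 across the split by edgeR's quasi-likelihood test. Elovl6 and Scd2 passed with the continuous term (adjusted p = 0.0019 and 0.00071, edgeR). A microRNA gene, Mir5114, lies within Scd2 on the same strand, so its reads are not separate evidence.

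Acss2, chosen after its values were seen, had 440, 354, 379 and 704 CPM in WT3, WT4, KO2 and KO4 and 208, 307, 144 and 225 CPM in WT1, WT2, KO1 and KO3. KO4 was far above the other libraries, and the log2 difference was 1.09 (SE 0.29). It overlaps Ggt7, Gss and an antisense transcript on the opposite strand, and the kit did not mark strand, so its reads are not fully its own. Scd1, the main desaturase of fat, did not follow: it had 90060, 103639, 94918 and 91978 CPM on the Fasn-high side and 76502, 99775, 90767 and 88673 CPM on the Fasn-low side. Its sides overlapped, and its log2 difference was 0.10 (SE 0.15), or 0.018 without WT1 and 0.18 without WT2. Acacb, Elovl5 and Fads1 lay within 0.01 of 0 on the log2 scale, with differences of 0.0045, 0.0055 and 0.0023. Mcat, the mitochondrial malonyl transferase, had the 1 negative difference, -0.22 (SE 0.17).

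**Figure D2:**
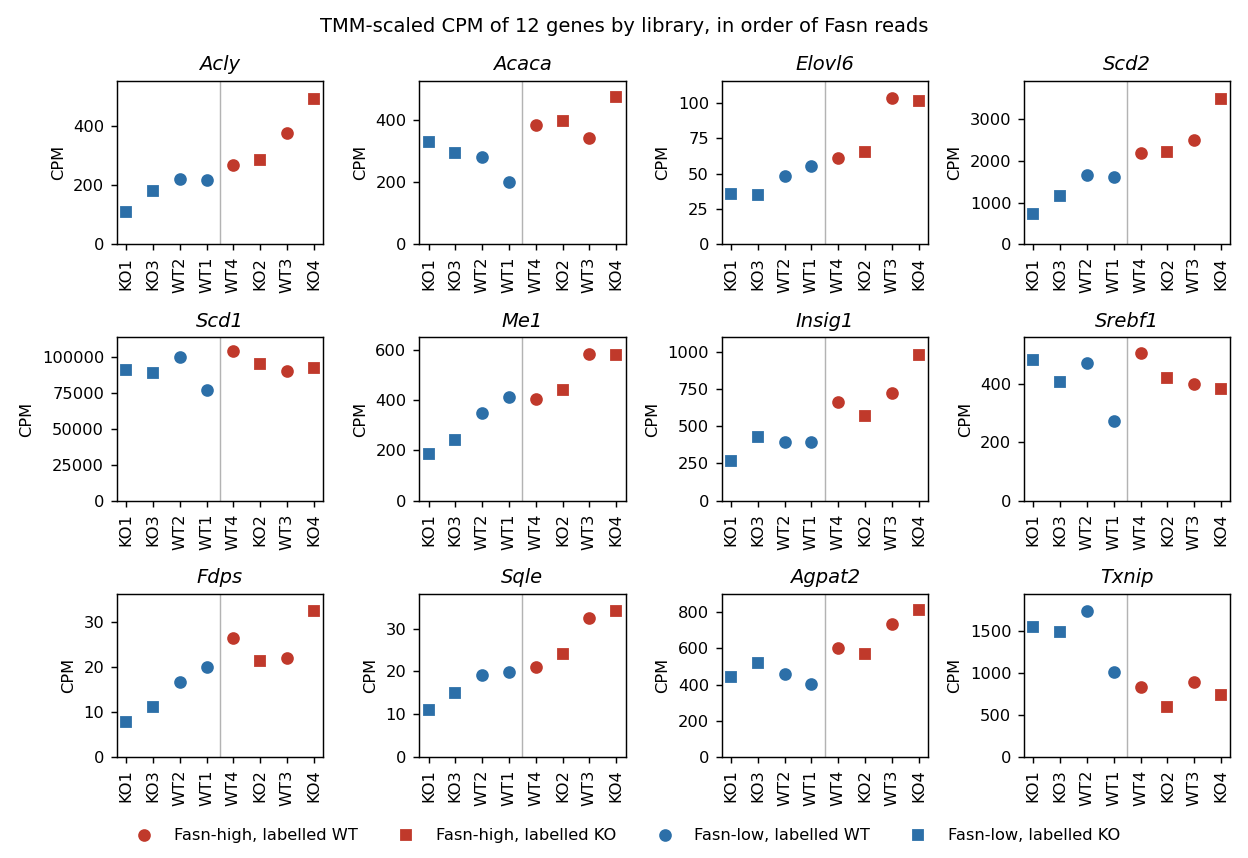
TMM-scaled CPM of 12 genes (y axis) in the 8 libraries in order of their Fasn reads (x axis), 1 point per library; the grey line is the split. Acly, Elovl6, Scd2 and Insig1 stand higher to the right of the line and Txnip lower, while Scd1 and Srebf1 overlap.

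Among 18 regulators of lipogenesis, 12 had positive differences with a median of 0.05. At an unadjusted p under 0.05, 1 was higher and 1 lower, against 3.52% and 4.05% of all genes. The higher one was Insig1, the SREBP anchor and itself a known SREBP target. Its values were 723, 663, 572 and 982 CPM in WT3, WT4, KO2 and KO4 and 397, 395, 269 and 431 CPM in WT1, WT2, KO1 and KO3. The sides were well apart, with a log2 difference of 0.98 (SE 0.19) and an adjusted p of 0.439 by edgeR's quasi-likelihood test. Insig1 passed with the continuous term (adjusted p = 0.0019, edgeR), with DESeq2 (adjusted p = 9.8e-05) and with edgeR's likelihood ratio test (adjusted p = 0.00520). Srebf1, which encodes SREBP-1, had 401, 508, 420 and 385 CPM against 274, 474, 485 and 409 CPM, and its sides overlapped. Its log2 difference of 0.07 (SE 0.18) was -0.12 without WT1 and -0.05 without WT4. Mlxipl had a log2 difference of 0.32 (SE 0.15) and Thrsp, a lipogenic protein of fat and liver, one of 0.35 (SE 0.18), both with overlapping sides. Mlxipl was 0.17 without WT4, and Thrsp was 0.22 without WT1 and 0.57 without WT2. Without WT1 the median of these 18 genes was -0.07.

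Cholesterol synthesis and uptake genes gave the highest median of the 20 lists described, 0.45. Of 22 measured, 20 had positive differences, and 11 had an unadjusted p under 0.05, all higher, against 3.52% of all genes. In 4 the sides did not overlap, all higher, against 1.65% of all genes. Fdps, farnesyl diphosphate synthase, had 22.1, 26.6, 21.3 and 32.4 CPM in WT3, WT4, KO2 and KO4 and 20.1, 16.7, 7.71 and 11.02 CPM in WT1, WT2, KO1 and KO3. The KO libraries on the Fasn-low side were the lowest, and the log2 difference was 0.92 (SE 0.25). Sqle, squalene epoxidase, had 32.5, 21.1, 24.0 and 34.2 CPM against 19.8, 19.1, 11.01 and 14.9 CPM, a log2 difference of 0.80 (SE 0.21). Lss, lanosterol synthase, chosen after its values were seen, had 84.9, 56.4, 59.6 and 125 CPM against 51.2, 45.3, 27.2 and 27.4 CPM. Its log2 difference was 1.14 (SE 0.34). 4930483K19Rik overlaps Lss on the opposite strand, so the reads of Lss are not fully its own.

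Nsdhl, which acts late in the pathway, had 76.4, 45.5, 49.7 and 71.2 CPM in WT3, WT4, KO2 and KO4 against 41.7, 46.5, 23.5 and 32.0 CPM in WT1, WT2, KO1 and KO3. WT4 lay just below WT2, so its sides overlapped, and the log2 difference was 0.78 (SE 0.21). Fdps, Sqle, Lss, Nsdhl and Cyp51, which removes a methyl group from lanosterol, passed with the continuous term (adjusted p between 0.00083 and 0.044, edgeR). Fdft1, squalene synthase, had a difference of -0.12 (SE 0.15). The list's median lay between 0.26 and 0.58 in all 24 alternative fits, and was lowest without KO4. Cyp51 was 0.43 on the log2 scale without KO4 and 0.68 with it. Akap9 overlaps Cyp51 on the opposite strand, so the reads of Cyp51 are not fully its own.

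Of 16 genes of NADPH supply and the pentose phosphate pathway, 12 had positive differences, with a median of 0.16. Malic enzyme, Me1, had 582, 404, 441 and 582 CPM in WT3, WT4, KO2 and KO4 and 413, 350, 186 and 241.3 CPM in WT1, WT2, KO1 and KO3. WT1 lay above WT4, and the log2 difference was 0.81 (SE 0.21); an antisense transcript overlaps the gene. Pgd, 6-phosphogluconate dehydrogenase, had 257.96, 240, 245 and 293 CPM against 210, 202, 144 and 183 CPM with no overlap, a log2 difference of 0.49 (SE 0.14). Both passed with the continuous term (adjusted p = 0.0020 for Me1 and 0.030 for Pgd, edgeR). H6pd, the hexose-6-phosphate dehydrogenase of the endoplasmic reticulum, went the other way, with 321 ± 41.9 CPM in Fasn-high and 433 ± 47.9 CPM in Fasn-low libraries (SD, n = 4 each). Its sides did not overlap, but WT4 (375.0 CPM) and WT1 (375.8 CPM) were almost equal.

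Of 22 genes of glucose uptake and glycolysis, 13 had positive differences and none had an unadjusted p under 0.05 in either direction. Slc2a4, the insulin-responsive glucose transporter GLUT4, had 148, 164, 149 and 141 CPM in WT3, WT4, KO2 and KO4 and 105, 166, 153 and 143 CPM in WT1, WT2, KO1 and KO3. Only WT1 stood low, and the log2 difference of 0.09 (SE 0.14) was -0.05 without it. Of 30 insulin signalling genes, 18 had positive differences. At an unadjusted p under 0.05, 0 were higher and 2 lower, against 3.52% and 4.05% of all genes. The lower ones were Irs2 and Trib3. Irs2, insulin receptor substrate 2, had 52.3 ± 10.8 CPM in Fasn-high and 72.1 ± 10.8 CPM in Fasn-low libraries (SD, n = 4 each), with overlap. Trib3, a pseudokinase that inhibits AKT, had 13.8 ± 1.36 and 24.2 ± 8.06 CPM. Its sides did not overlap, but KO4 (15.3 CPM) and KO3 (15.6 CPM) were almost equal.

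Triglyceride synthesis genes were mixed, with 12 of 19 positive. At an unadjusted p under 0.05, 2 were higher and 3 lower, against 3.52% and 4.05% of all genes. Agpat2, the acyltransferase of the second step, had 734, 605, 568 and 815 CPM in WT3, WT4, KO2 and KO4 and 405, 456, 441 and 520 CPM in WT1, WT2, KO1 and KO3. Its sides did not overlap, with a log2 difference of 0.58 (SE 0.15), but Egfl7 lies on the opposite strand there and reads cannot be assigned between them. Dgat2, which makes the final triglyceride, had 1823 ± 225 CPM in Fasn-high and 1320 ± 207 CPM in Fasn-low libraries (SD, n = 4 each), with overlap. Agpat6 and Aqp7, the glycerol channel, had lower values, with log2 differences of -0.40 (SE 0.14) and -0.42 (SE 0.17). Without KO2 Aqp7 was -0.27.

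Of 16 genes of fatty acid uptake and binding, 9 had positive differences, and of 23 genes of lipolysis and beta-adrenergic signalling 15 had negative ones. In the lipolysis list, 4 were lower and 2 higher at an unadjusted p under 0.05, against 4.05% and 3.52% of all genes. Npr3 (log2 difference 0.46, SE 0.20) was among the higher. The median of that list was -0.06 (0.03 within WT and -0.10 within KO libraries) and turned sign in 3 of 24 alternative fits. Acsl3, an acyl-CoA synthetase of lipid droplets, had 50.3, 37.9, 55.5 and 57.0 CPM in WT3, WT4, KO2 and KO4 and 37.7, 21.5, 36.7 and 25.9 CPM in WT1, WT2, KO1 and KO3. WT4 and WT1 were almost equal, and the log2 difference was 0.71 (SE 0.19). Pnpla2, the triglyceride lipase ATGL, had 1190, 1195, 981 and 942 CPM against 981, 1564, 1962 and 1811 CPM, a log2 difference of -0.53 (SE 0.20). Here WT1 lay among the Fasn-high libraries. Adcy5, an adenylyl cyclase, had 168 ± 29.5 CPM in Fasn-high and 248 ± 54.7 CPM in Fasn-low libraries (SD, n = 4 each).

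Fatty acid oxidation genes had negative differences in 26 of 29, with a median of -0.18 (-0.30 without WT1). Summed adipocyte markers were 25345 ± 1009 CPM in Fasn-high and 30753 ± 3667 CPM in Fasn-low libraries (SD, n = 4 each), and their part in these values was not tested. Etfa, a subunit of the electron transfer flavoprotein, had 147, 136, 102 and 107 CPM in WT3, WT4, KO2 and KO4 and 130, 171, 147 and 166 CPM in WT1, WT2, KO1 and KO3. WT1 lay below WT3 and WT4, and the log2 difference was -0.34 (SE 0.14). Of 75 nuclear genes of the respiratory chain, 68 had negative differences. At an unadjusted p under 0.05, 7 were lower and 1 higher, against 4.05% and 3.52% of all genes. In 3 the sides did not overlap, all lower, against 2.38% of all genes. The median of the 75 was -0.16 (-0.07 without WT2 and -0.26 without WT1). Uqcr11, a complex III subunit, had 46.4 ± 6.22 CPM in Fasn-high and 62.1 ± 8.48 CPM in Fasn-low libraries (SD, n = 4 each). Ndufs5 of complex I went the other way, with a difference of 0.60 (SE 0.21). All 13 genes encoded in the mitochondrial genome had positive differences, with a median of 0.17 (0.086 without WT3 and 0.26 without WT4), and none had an unadjusted p under 0.05.

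Of 75 cytosolic ribosomal protein genes, 74 had negative differences, with a median of -0.25 (-0.16 without WT2). There were 13 with an unadjusted p under 0.05, all lower, against 4.05% of all genes. In 9 the sides did not overlap, all lower, against 2.38% of all genes. Rpl34 had 23.2, 25.1, 23.0 and 19.9 CPM in WT3, WT4, KO2 and KO4 and 35.5, 28.6, 35.6 and 28.4 CPM in WT1, WT2, KO1 and KO3, a log2 difference of -0.49 (SE 0.15). Rps4x had 96.0, 115, 120 and 110 CPM against 143, 157, 140 and 133 CPM, a log2 difference of -0.38 (SE 0.12). The sum over the list was 3887 ± 262 CPM in Fasn-high and 4675 ± 599 CPM in Fasn-low libraries (SD, n = 4 each), with the sums overlapping in WT1 (4075 CPM) and WT4 (4261 CPM). Genes of one list share their libraries and are not independent of each other.

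**Figure D3:**
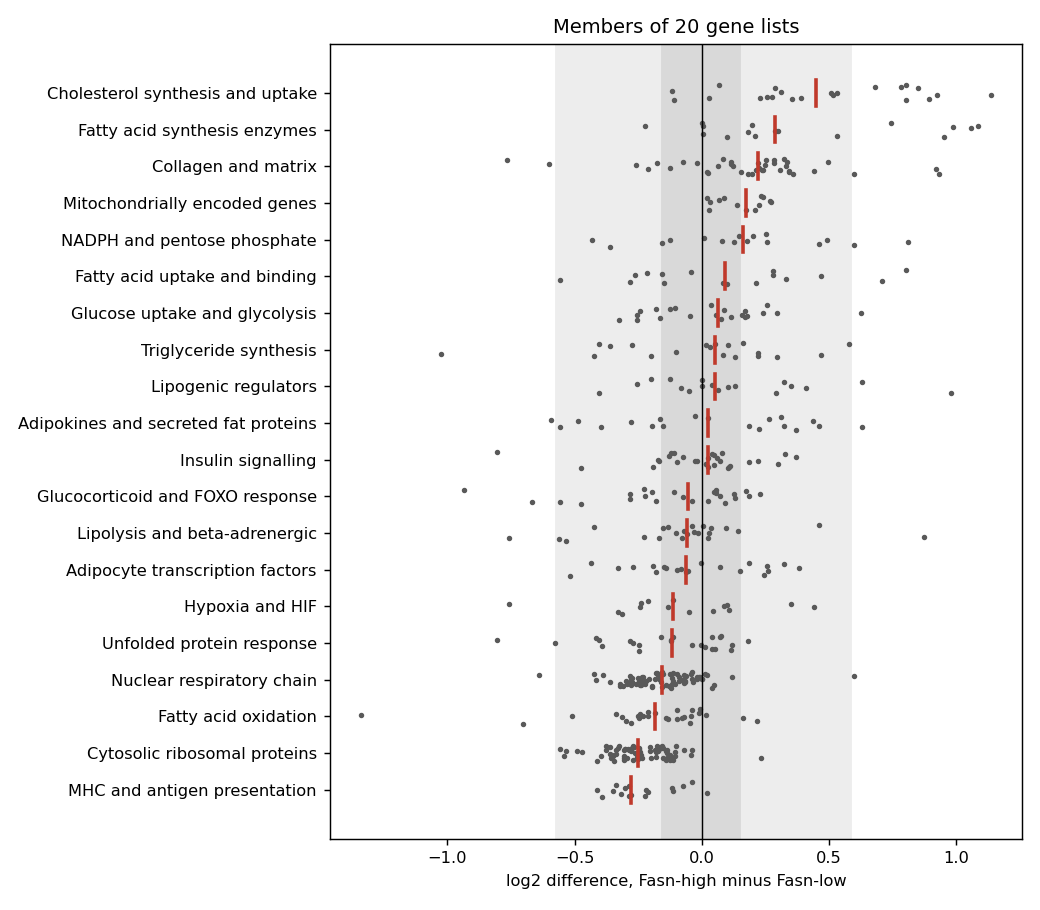
Each point is the log2 difference, Fasn-high minus Fasn-low (x axis), of 1 member of the 20 lists (y axis), and red bars are medians. The dark and light grey bands hold the middle 50% (-0.16 to 0.15) and 95% (-0.57 to 0.59) of all genes tested; cholesterol and fatty acid synthesis genes reach furthest right of the light band.

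Unfolded protein response genes were lower in 15 of 24, with 4 at an unadjusted p under 0.05, all lower, against 4.05% of all genes. Xbp1, its transcription factor, had 125, 146, 129 and 131 CPM in WT3, WT4, KO2 and KO4 and 124, 196, 199 and 185 CPM in WT1, WT2, KO1 and KO3, so WT1 stood with the Fasn-high side. Of 17 genes of MHC and antigen presentation, 16 had negative differences, with a median of -0.28 (-0.11 without WT2). Only 1 was lower at an unadjusted p under 0.05, against 4.05% of all genes. H2-D1, a class I heavy chain, had 1267 ± 206 CPM in Fasn-high and 1572 ± 358 CPM in Fasn-low libraries (SD, n = 4 each), where WT2 was the highest with 2101 CPM.

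Txnip, the thioredoxin-interacting protein that restrains glucose uptake, led the 24 glucocorticoid and FOXO response genes, of which 13 had negative differences. It had 890, 836, 589 and 733 CPM in WT3, WT4, KO2 and KO4 and 1015, 1738, 1544 and 1479 CPM in WT1, WT2, KO1 and KO3. Every Fasn-high library was below every Fasn-low one, with WT1 the nearest, and the log2 difference was -0.93 (SE 0.18; adjusted p = 0.375 by edgeR's quasi-likelihood test). The log2 difference of Txnip was -1.12 without WT1, and leaving out this nearest library widens it by construction. Txnip passed with DESeq2 (adjusted p = 6.1e-05) but not with the continuous term. Gm15441 overlaps it on the opposite strand with nearly the same counts, and the 2 cannot be told apart.

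Among transcription factors of adipocytes, 13 of 21 had negative differences, with a median of -0.06. It was 0.16 within the WT libraries and -0.17 within the KO libraries, and turned sign in 2 of 24 alternative fits. Pparg, the master factor of fat cells, had 336 ± 26.2 CPM in Fasn-high and 257.7 ± 38.7 CPM in Fasn-low libraries, and Cebpa 708 ± 93.7 and 956 ± 234 CPM (SD, n = 4 each), both with overlap. Adiponectin, Adipoq, had 1379, 1328, 1019 and 1035 CPM in WT3, WT4, KO2 and KO4 and 1489, 1731, 1759 and 1634 CPM in WT1, WT2, KO1 and KO3. Its sides did not overlap, with a log2 difference of -0.49 (SE 0.14), and it passed with DESeq2 (adjusted p = 0.029). Leptin, Lep, had 2480, 1811, 1946 and 2520 CPM against 3309, 1552, 969 and 1183 CPM. WT1 was the highest of all 8, and the log2 difference was 0.44 (SE 0.33), or 0.24 without KO1 and 0.81 without WT1. Rbp4, the retinol carrier, had 268 ± 24.6 CPM in Fasn-high and 207 ± 22.3 CPM in Fasn-low libraries without overlap.

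Collagen and matrix genes had positive differences in 31 of 39, with a median of 0.22. At an unadjusted p under 0.05, 7 were higher and 1 lower, against 3.52% and 4.05% of all genes. The median was 0.099 without KO4, and it was 0.02 within the WT libraries and 0.30 within the KO libraries. Col15a1, a basement membrane collagen, had 354, 319, 296 and 428 CPM in WT3, WT4, KO2 and KO4 and 295, 216, 106 and 157 CPM in WT1, WT2, KO1 and KO3. KO2 and WT1 were nearly equal, and the log2 difference was 0.92 (SE 0.25). Thbs2, thrombospondin 2, was the lower one, with 66.2 ± 18.2 CPM in Fasn-high and 98.3 ± 15.4 CPM in Fasn-low libraries (SD, n = 4 each). Both passed with the continuous term (adjusted p = 0.0020 and 0.043, edgeR). Of 15 hypoxia genes 9 had negative differences. At an unadjusted p under 0.05, 2 were higher and 2 lower, against 3.52% and 4.05% of all genes, so the list had no common direction. The lower ones were Ndrg1 and Bnip3, a mitophagy receptor, both without overlap. Ndrg1 had 84.1 ± 16.7 CPM in Fasn-high and 143 ± 30.0 CPM in Fasn-low libraries, and Bnip3 181 ± 14.6 and 228 ± 6.98 CPM. Gm17035 and Gm2895 overlap Ndrg1 on the opposite strand, so its reads are not fully its own. The higher ones were Hif1a (log2 difference 0.44, SE 0.18), with overlap, and Ero1l (0.35, SE 0.16), without overlap.

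The genes with the smallest p in the higher direction were Gm12426, Ppp1r3b, 0610038P03Rik, Insig1, Sorl1 and Vac14, and in the lower direction Chrdl1, Gm15441, Txnip, Wisp2, Fbln5 and AY036118. Ppp1r3b, a subunit that targets a phosphatase to glycogen, had 30.7, 44.4, 41.5 and 46.6 CPM in WT3, WT4, KO2 and KO4 and 24.2, 19.5, 13.6 and 20.97 CPM in WT1, WT2, KO1 and KO3, a log2 difference of 1.06 (SE 0.19). Chrdl1, a BMP antagonist, had 58.5, 61.2, 54.2 and 39.9 CPM against 95.5, 88.7, 91.4 and 128 CPM, a log2 difference of -0.92 (SE 0.16). Wisp2, a secreted Wnt-induced protein of fat precursors, had 27.5, 33.5, 28.8 and 21.7 CPM against 94.4, 45.3, 78.9 and 50.1 CPM, a log2 difference of -1.27 (SE 0.24). All 12 genes except Fbln5 had sides that did not overlap, and their adjusted p lay between 0.352 and 0.473 by edgeR's quasi-likelihood test. Gm12426 lies opposite Col15a1 and 0610038P03Rik opposite Gss, so their reads are uncertain. Vnn1, a pantetheinase chosen after its values were seen, had 15.9 ± 5.80 CPM in Fasn-high and 47.6 ± 17.6 CPM in Fasn-low libraries (SD, n = 4 each) and passed with the continuous term (log2 difference -1.58, adjusted p = 0.00083, edgeR).

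WT1, a Fasn-low library, stood with the Fasn-high side for several genes of lipid storage, which were picked after their values were seen. Lpl, the lipase that frees fatty acids from lipoproteins, had 7901 CPM in WT1, 3987, 4284 and 4519 CPM in WT2, KO1 and KO3, and 7376, 5377, 7362 and 8335 CPM in WT3, WT4, KO2 and KO4. Pck1, the key enzyme of glyceroneogenesis, chosen after its values were seen, had 973 CPM in WT1, 2154, 2442 and 2798 CPM in WT2, KO1 and KO3, and 1303, 1371, 720 and 762 CPM in WT3, WT4, KO2 and KO4. Without WT1 the quasi-likelihood test called 59 genes higher (0.385%) and 48 lower (0.313%) of 15313. Fads2, a desaturase, was the 1 fatty acid synthesis gene called in that fit, and 0 of 22 cholesterol genes were called. Acly, Acss2, Elovl6, Scd2, Insig1 and Me1, which passed with the continuous term, had adjusted p between 0.079 and 0.26 there by edgeR. Where WT1 stands with the Fasn-high side, leaving it out widens the difference by construction, so the following values are a description and no test. The log2 difference was 0.77 without WT1 and 0.47 with it for Lpl, 0.72 and 0.46 for Npr3, the natriuretic peptide clearance receptor, and 1.14 and 0.75 for Fads2. It was -1.39 and -1.02 for Pck1, -0.75 and -0.53 for Pnpla2, -0.63 and -0.44 for Cebpa, and -0.76 and -0.51 for Eci1 of fatty acid oxidation. WT1 also had the highest liver marker sum, 2367 CPM, and WT4 the next, 1959 CPM, and their part in these values was not tested.

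The split was also followed within each label, in fits that share no library. In the WT libraries edgeR's quasi-likelihood test called 0 genes (0%; 451 at an unadjusted p under 0.05; DESeq2 called 11), and in the KO libraries 57 (0.381%), 31 higher and 26 lower. A test of the difference between the labels, the interaction, called 0 genes (0%; smallest adjusted p 0.169, 947 at an unadjusted p under 0.05; DESeq2 called 10 and edgeR's likelihood ratio test 18). With 1 library left out the interaction called 0 to 20 genes, the most without WT2. Within KO, Me1 rose (log2 difference 1.26), and Pck1 (-1.82), Txnip (-1.19) and Pnpla2 (-0.97) fell, with adjusted p between 0.0089 and 0.045 by edgeR. With muscle marker levels as a covariate the KO fit called 1 gene. The covariate leaves this fit fewer degrees of freedom, so the lower count cannot be assigned to muscle. Liver genes Serpina1b and Serpina1a were also called higher, with log2 differences of 2.31 and 2.16, beside a liver marker sum of 1188 CPM in KO2 against 397 to 504 CPM in KO1, KO3 and KO4, and this was not tested further.

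Over all genes 52.2% had the same sign within both labels, 26.3% higher in both and 25.8% lower in both. Of 17 fatty acid synthesis genes 13 were higher in both and none lower in both, with medians of 0.25 within WT and 0.41 within KO. Of 22 cholesterol genes 15 were higher in both and 2 lower in both, with medians of 0.29 and 0.67. Of 75 ribosomal protein genes 61 were lower in both, with medians of -0.18 and -0.30. Of 75 nuclear respiratory chain genes 40 were lower in both, with medians of -0.02 and -0.27, and the 29 fatty acid oxidation genes had medians of 0.01 within WT and -0.31 within KO. The label itself, beside the split, called 0 genes by the quasi-likelihood test (0%; smallest adjusted p 0.252, 767 at an unadjusted p under 0.05; DESeq2 called 49).

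**Figure D4:**
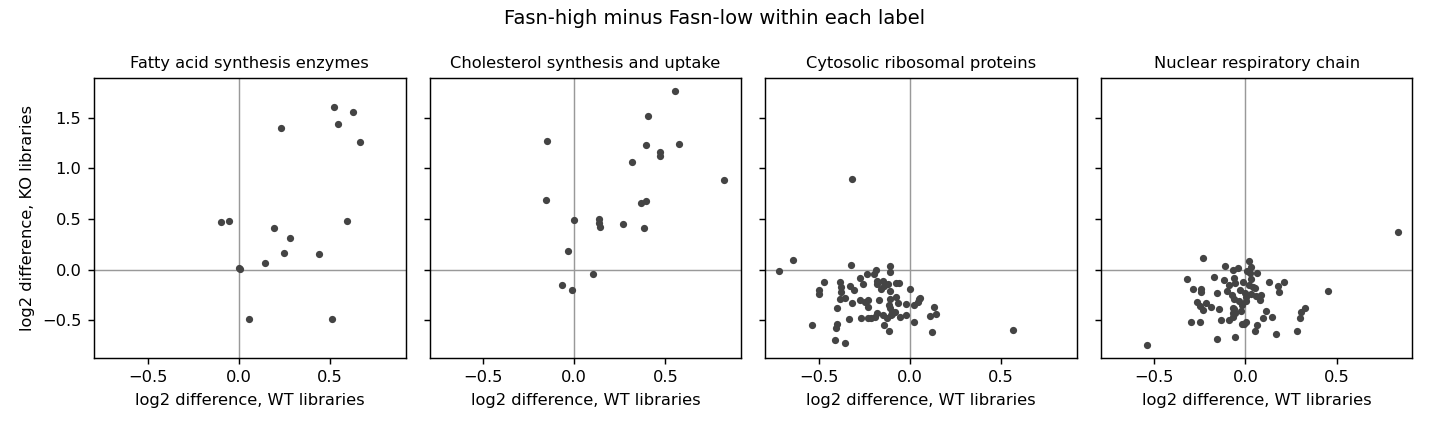
Each point is 1 gene of the named list, with its log2 difference between Fasn-high and Fasn-low within the WT libraries (x axis) and within the KO libraries (y axis), 2 against 2 libraries each. Fatty acid and cholesterol synthesis genes lie mostly in the upper right, ribosomal protein genes in the lower left, and respiratory chain genes spread around 0 on the WT axis.

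Summed markers of the other cell types overlapped between the sides. Skeletal muscle markers summed to 3814, 2511 and 4304 CPM in KO1, KO2 and KO4 and to between 468 and 932 CPM in the other libraries, so they were high on both sides. Liver markers summed to 2367, 1959 and 1188 CPM in WT1, WT4 and KO2 and to 397 to 548 CPM elsewhere. Schwann and nerve markers were highest in KO1, with 805 CPM against 366 to 469 CPM elsewhere. All 15 adipocyte markers were measured, none was at 0, and 12 of 15 had negative differences. Their sum was 26292, 26133, 24604 and 24351 CPM in WT3, WT4, KO2 and KO4 and 25528, 31533, 34104 and 31846 CPM in WT1, WT2, KO1 and KO3 (exact two-sided permutation p = 0.0857, where 4 against 4 cannot go below 0.0286). WT1 again lay within the Fasn-high range.

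**Figure D5:**
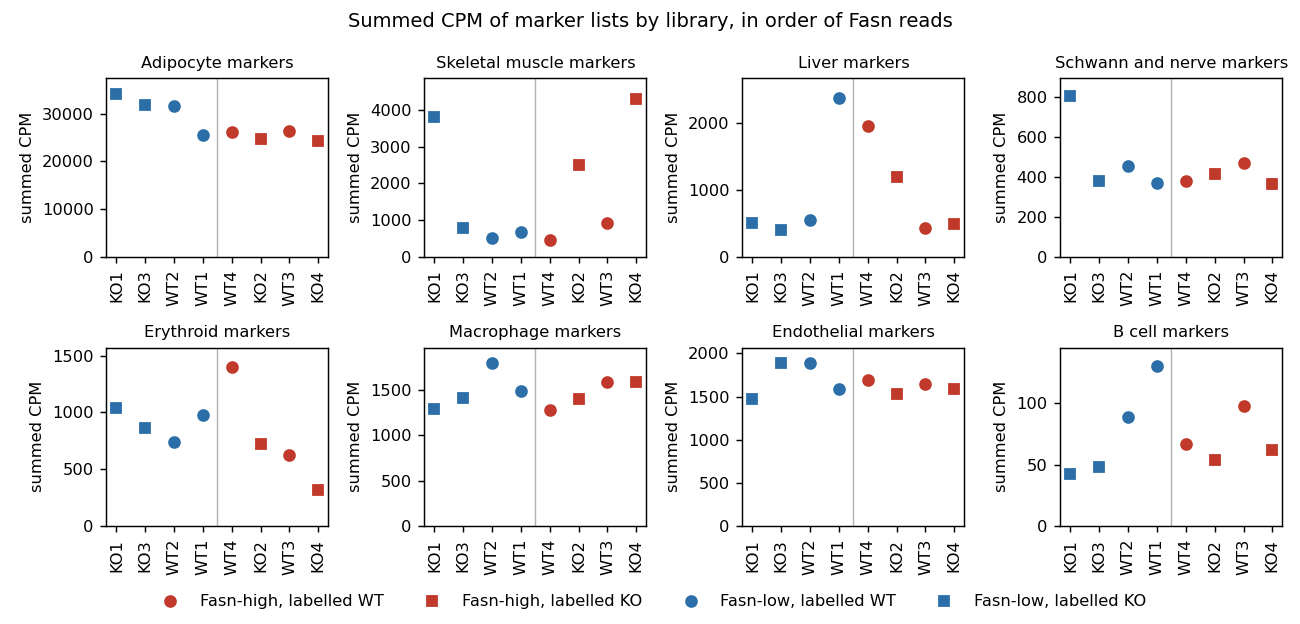
Summed TMM-scaled CPM of 8 marker lists (y axis) in the 8 libraries in order of Fasn reads (x axis), 1 point per library, with the grey line at the split. Muscle markers are high in KO1, KO2 and KO4 and liver markers in WT1, WT4 and KO2, on both sides of the line.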

How the data were processed

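Poly(A) RNA was sequenced after 12 PCR cycles with a kit that does not keep the strand, per the labels' protocols. FastQC, Bowtie2, edgeR and build mm9 are named, without versions, by the submitters' processing notes; the sources used here do not give the counter. Raw read counts for 18022 genes were deposited by the authors. Between libraries chi-square per gene was at least 4.02 (genes of 20 or more summed reads), so no library is a copy of another.

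Counts were tested with edgeR 4.0.16 (R 4.3.3): TMM scaling, filterByExpr (14952 genes with Fasn), robust quasi-likelihood F test on label and Fasn side, Benjamini-Hochberg adjustment at 0.05. The biological coefficient of variation was 18.0%. CPM is TMM-scaled, and an SE is the log2 difference over the root of F. The labels name a mouse per library, so the spread is between mice. The grouping, gene lists and named genes were chosen with earlier results of these data known. Named were 15 genes picked by name (lipid and adipocyte genes and Prkd1), the 6 smallest p per direction, up to 4 members with the smallest p of each of 20 lists, and 6 genes chosen after their values were seen (Acss2, Lss, Cyp51, Vnn1, Fads2 and Pck1). Not all of them are printed, and some results are not reported here. The continuous term was log2 Fasn CPM, scaled so that its coefficient is the difference over the gap between the 2 side means. Overlapping genes were looked up by name in GENCODE M21. Srebf1, Acsl3, Sorl1 and Hif1a overlap Rai1, Utp14b, Gm16214 and Gm15283 in that order, so their reads too are not fully their own. Promoter windows are of GRCm38, a different build from the authors' mm9, and are used only as sequence. Of the fatty acid and cholesterol synthesis genes 76.5% and 63.6% had a window, under 80%, so no share over these lists is given. Scripts were tested on simulated data.

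Alternatives were RLE, upper quartile and library size scaling, 2 count filters, edgeR's likelihood ratio test, DESeq2 1.42.0, limma-voom (limma 3.58.1), a non-robust fit, an adjusted p of 0.1, no label term, the replicate number as a block, the continuous term, marker covariates and each library left out. The fit without WT1 and WT4 was chosen after the data were seen.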

Additional observations from a re-analysis of the deposited data

Results flagged for a closer look

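Among 214 sets of 4 libraries, 2 held a library far from the other 3, where chance alone would mark about 1 in 20 sets. A set was the log2 CPM of a gene, or the log2 summed CPM of a marker list, on 1 side of the split. Xbp1, a transcription factor of the unfolded protein response, had 124 CPM in WT1, and the nearest other Fasn-low library had 185 CPM. Npr3, the natriuretic peptide clearance receptor, had 2010 CPM in WT1, and the nearest other Fasn-low library had 1176 CPM.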

How the results depend on the processing

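Called genes across the split numbered 26 higher and 16 lower in DESeq2, 19 and 9 in the likelihood ratio test, 46 and 24 with the continuous Fasn term, and 107 and 65 without WT1 and WT4. Leaving out 1 library gave 0 to 59 higher and 0 to 48 lower; every other setting gave 0, as did the replicate block. The label called 49 genes in DESeq2, 83 in the likelihood ratio test, 12 under the replicate block and 0 to 50 with 1 library left out. The interaction called 10, 18, 154 and 0 to 20 in the same settings. Within WT there were 11 calls in DESeq2, 7 in the likelihood ratio test, 6, 58 and 1 with the muscle, B cell and liver covariates, and 0 to 56 with 1 library left out. Within KO the 57 calls became 91 with the filter of 1 CPM in all libraries, 133 in DESeq2, 313 in the likelihood ratio test, 6 with limma-voom, 3 without the robust option, 157 at an adjusted p of 0.1, 153 with the continuous term, 1, 4 and 14 with the muscle, B cell and liver covariates, and 12 to 132 with 1 library left out. Genes without overlap numbered 361 to 968 higher and 463 to 968 lower with 1 library left out, and 1782 and 1674 without WT1 and WT4. Fewer libraries make non-overlap likelier without any difference, and WT1 and WT4 lie next to the threshold. These counts therefore cannot be compared with the 246 and 356 of all 8 libraries. Of 96 named genes 3 turned sign. Srebf1 was -0.015 with limma-voom, -0.10 with the replicate block, -0.049 with the continuous term, -0.12 to 0.19 with 1 library left out (-0.12 without WT1, -0.045 without WT4), and -0.18 without WT1 and WT4. Scd1 was -0.025 with the replicate block and -0.0039 without WT1 and WT4. Slc2a4 was -0.053 with the replicate block, -0.053 (without WT1) to 0.21 with 1 library left out, and -0.069 without WT1 and WT4. Leaving out 1 library moved 30 of the 96 by over 1.5 times or turned them. The sign of the median held in all 24 fits for 12 of the 20 lists, fatty acid and cholesterol synthesis, respiratory chain, oxidation and ribosomal genes among them. Each of these fits held KO libraries, and within WT alone the medians were -0.02 for respiratory chain and 0.01 for oxidation genes. Same-numbered WT and KO libraries deviated in opposite directions (correlations -0.15, -0.31, -0.20 and -0.30), so the numbers do not pair them. The 12 label and 154 interaction calls under the replicate block therefore rest on blocks that pair nothing, with few degrees of freedom left. The cause of these shifts was not tested. Covariates leave the within-label fits fewer degrees of freedom, so their counts cannot be compared directly with those without a covariate. Where a side keeps 1 library, it was assumed to vary like the others. Genes at a few CPM, such as Fdps in KO1, rest on few reads.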

Other observations

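Of 22 genes of branched-chain amino acid breakdown, 18 had negative log2 differences, with a median of -0.14 (0.06 within the WT libraries and -0.35 within the KO libraries), and none had an unadjusted p under 0.05 by edgeR's quasi-likelihood test. Of 20 immediate early genes, the transcription factors first induced by many stimuli, 15 had negative differences, with a median of -0.24; it was -0.50 within WT and 0.18 within KO, and this difference was not tested for the list. Of 25 interferon-stimulated genes 18 had positive differences, with a median of 0.15 (-0.04 within the WT libraries and 0.22 within the KO libraries). Circadian clock genes were mixed, with 8 of 19 positive.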
